A study of Mus musculus with 4 samples.

Results

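The promoters of the keratin filament genes were taken from a genome-wide map of histone H3 lysine 9 dimethylation (H3K9me2) in mouse aortic vascular smooth muscle cells (VSMCs). A promoter was a member if its gene symbol was Krt followed by a number and at most 1 letter. This gave 50 of the 26354 promoters in the table. By the known sites of keratin expression, 5 of the 50 were simple-epithelial, 16 epidermal or of other stratified epithelia, 8 of the hair root sheath, 14 of the hair shaft and 7 of other or mixed expression. The data came from the medial layer of aortas of male C57Bl/6J mice, from which fat, adventitia and endothelium had been removed by hand before formaldehyde fixation. In each of 2 independent experiments, v102 and v134, chromatin immunoprecipitated with an H3K9me2 antibody was sequenced together with its input chromatin. All 4 libraries thus shared strain, sex and tissue, and no treatment arm was compared. The age and number of mice behind each library are not given in the sources used here. Manual removal of the outer and inner layers leaves a tissue sample rather than sorted cells.

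Keratins are intermediate filament proteins that assemble as obligate pairs of an acidic type I and a basic or neutral type II chain. The pairs mark kinds of epithelium, from the single-layered epithelia of gut, liver and ducts to the layered epidermis and the hard fibres of hair. Nearly all type I genes lie in one cluster and all type II genes in another, and the exception is the type I gene Krt18, which lies at the end of the type II cluster. H3K9me2 is a mark of repressed chromatin, placed mainly by the methyltransferases EHMT1 and EHMT2. Smooth muscle cells build their intermediate filaments from desmin and vimentin, not chiefly from keratins.

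A window of 1 kb on either side of the transcription start had been counted at each promoter. Summed over the table, ChIP gave 162233 reads in v102 and 229605 in v134, and input gave 619100 and 1084349. Keratin promoters held a median of 8 ChIP reads in v102 and 9 in v134, with 19 and 36 for input, while the medians of the table were 4 and 5 for ChIP and 20 and 37 for input. Precision at a single promoter is therefore low. The H3K9me2/input ratio is the deposited quotient of summed ChIP and summed input reads, not scaled for library size, with a median of 0.162 and a 75th percentile of 0.343 over the table. The log2 ratio was computed within each experiment, with each read count raised by 1 and divided by its library's total, and is given as the mean ± SD of n = 2 experiments. Its median over all promoters was -0.11 in v102, -0.38 in v134 and -0.31 for the mean, which is the level against which keratins are read. The log2 fold change of ChIP over input and its adjusted p come from edgeR's quasi-likelihood test over all 26354 promoters, and a promoter is called above or below input at an adjusted p under 0.05. These tests rest on 2 libraries against 2. The experiments' log2 ratios differed by a median of 0.48 at keratin promoters and 0.70 over the table.

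The proximal promoters of the highest and the lowest simple-epithelial, stratified and hair keratin with an entry in the RefSeq promoter table are shown, because the results contrast these classes. Of the 50 keratins, 34 had an entry. Each sequence is the 200 bases upstream of the outermost annotated start, read from the RefSeq genome GRCm38.p6 and written 5′ to 3′ on the gene's strand, with CG and TATAAA in capitals. The stretches lie at chr15:102004483-102004682, minus strand (Krt8), chr15:102027980-102028179, plus strand (Krt18), chr15:101892921-101893120, minus strand (Krt76), chr11:100207549-100207748, minus strand (Krt14), chr15:101550668-101550867, minus strand (Krt82) and chr11:100088270-100088469, minus strand (Krt32). All lie within 1 kb of the annotated start.
Krt8: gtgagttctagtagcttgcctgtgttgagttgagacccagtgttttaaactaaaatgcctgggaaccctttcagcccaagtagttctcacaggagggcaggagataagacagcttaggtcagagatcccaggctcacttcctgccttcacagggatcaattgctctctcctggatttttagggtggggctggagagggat
Krt18: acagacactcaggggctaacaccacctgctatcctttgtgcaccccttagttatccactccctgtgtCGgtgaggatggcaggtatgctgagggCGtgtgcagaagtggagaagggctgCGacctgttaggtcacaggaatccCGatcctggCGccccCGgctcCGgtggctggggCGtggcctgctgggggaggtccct
Krt76: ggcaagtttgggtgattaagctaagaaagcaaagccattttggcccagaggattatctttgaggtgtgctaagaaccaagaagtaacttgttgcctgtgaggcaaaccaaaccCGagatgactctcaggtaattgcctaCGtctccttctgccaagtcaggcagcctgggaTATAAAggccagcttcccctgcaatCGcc
Krt14: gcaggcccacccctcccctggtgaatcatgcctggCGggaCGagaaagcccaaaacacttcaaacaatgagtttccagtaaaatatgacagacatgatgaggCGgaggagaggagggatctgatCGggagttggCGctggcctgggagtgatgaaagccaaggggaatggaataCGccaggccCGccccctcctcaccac
Krt82: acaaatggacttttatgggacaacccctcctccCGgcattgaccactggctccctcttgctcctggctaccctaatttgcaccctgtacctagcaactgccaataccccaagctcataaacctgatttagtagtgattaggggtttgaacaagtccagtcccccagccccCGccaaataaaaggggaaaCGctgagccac
Krt32: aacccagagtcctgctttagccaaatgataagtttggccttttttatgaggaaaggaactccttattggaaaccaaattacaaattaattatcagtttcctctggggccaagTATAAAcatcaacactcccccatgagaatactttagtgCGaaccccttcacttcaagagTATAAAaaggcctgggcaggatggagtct
The simple-epithelial pair differed most in CG content among the pairs shown, with 8 CG in the Krt18 sequence and 0 in that of Krt8. The Krt32 sequence held 1 CG and 2 copies of TATAAA, of which the nearer began 29 bases before the start. The Krt76 sequence held 1 TATAAA, also beginning 29 bases before the start, and the Krt14 sequence held 7 CG and no TATAAA.

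Over all members, hair keratin promoters had the highest class median of the H3K9me2/input ratio on the log2 scale, and simple-epithelial keratin promoters were close to the table's median. With a minimum of 20 reads in each input, which leaves 4 of the 14 hair keratins, the hair median was no longer the highest. Of the 50 keratin promoters, 13 were called above input and 1, Krt1, below. In the whole table, 18.6% of promoters were called above and 17% below. The 13 were 9 of 14 hair keratins (Krt31, Krt32, Krt33b, Krt34, Krt36, Krt39, Krt40, Krt81 and Krt86), 2 of 8 root sheath keratins (Krt25 and Krt75) and 2 of 16 stratified keratins (Krt2 and Krt14). None of the 5 simple-epithelial and none of the 7 other keratins was called in either direction by edgeR or by DESeq2, and none of these 12 had an unadjusted p under 0.05 in edgeR, while DESeq2 gave 8 of them no adjusted p. Outside the hair class, 4 of 36 keratins (11.1%) were called above input, a share below that of the table. The median log2 ratio of these 36 was nevertheless 0.32, above the -0.31 of all promoters. Of the 36, 24 lay above the table's median in both experiments, as did 10023 of all 26354 promoters. With the experiment as a replicate block, 11 keratins were above input and 1 below, against 15.8% and 8.3% of the table, and Krt75 and Krt81 lost their calls. Leaving out 1 library at a time lowered the count of keratins above input, whichever library was left out. Over the whole table the count above input also fell, except without the v102 ChIP, where it rose. The calls that at least 1 such fit lost were those of Krt1, Krt2, Krt14, Krt25, Krt33b, Krt75, Krt81 and Krt86, 8 of 14, with adjusted p of up to 0.258, 0.253, 0.204, 0.219, 0.359, 0.34, 0.44 and 0.191 in the same order. Of the 14 hair keratins, 7 or 8 were called above input in each of these fits.

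The order of the classes was the same in both experiments for the simple-epithelial, stratified and hair keratins. The median log2 ratio of the hair class was 1.53 in v102 and 1.33 in v134. That of the stratified class was 0.64 and 0.44, and that of the simple-epithelial class 0.025 and -0.13. As means of both experiments the medians were 1.49, 0.53 and -0.18. Root sheath keratins had medians of 0.84 and 0.27, and thus lay above the stratified class in v102 and below it in v134. Summed over its members and scaled by the library totals, hair had a ChIP/input ratio of 3.06 in v102 and 2.24 in v134, where 1 is the average of the table. The stratified class had 1.47 and 1.27, the root sheath class 1.85 and 1.22, and the simple-epithelial class 0.806 and 0.869. These class values describe the members. Genes of a class are neighbours and relatives rather than replicates, so no p is given for the difference between classes.

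**Figure D1:**
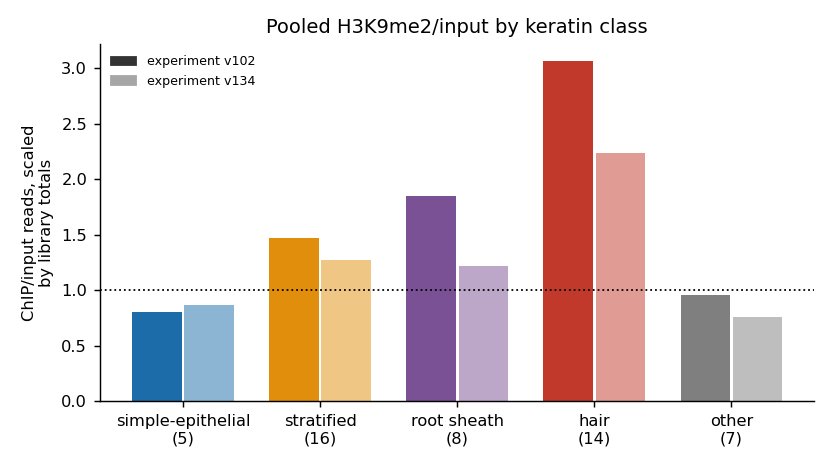
Bars give ChIP reads divided by input reads, each summed over the promoters of a keratin class and scaled by the library total, in experiment v102 (full colour) and v134 (pale); the number of promoters is in brackets and the dotted line at 1 is the table's average. Hair bars reach 3.06 and 2.24, and simple-epithelial bars stay under 1 in both experiments.

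The hair class differed from the table in its ChIP reads, with medians of 13.5 and 22 reads against 4 and 5. Its input reads also departed from the table in v102, where the hair median was 15 against 20, but not downward in v134, where it was 38 against 37. In v134 alone the class still had a median percentile of 87.0 among all promoters, against 87.8 in v102. At least 20 reads in each input were present at 24 of the 50 keratins but at 4 of the 14 hair keratins (Krt33a, Krt36, Krt82 and Krt84), and the median log2 ratio of these 4 was 0.59, against 0.28 for 9 stratified, 0.60 for 5 root sheath and -0.47 for 2 simple-epithelial keratins under the same minimum. Under it the root sheath and hair medians were thus nearly equal. In the top quartile of the log2 ratio in both experiments lay 14 of the 50 keratins, namely 9 hair, 3 stratified and 2 root sheath keratins, while 17.7% of all promoters did so. A further 15 keratins were in the top quartile of 1 experiment only.

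**Figure D2:**
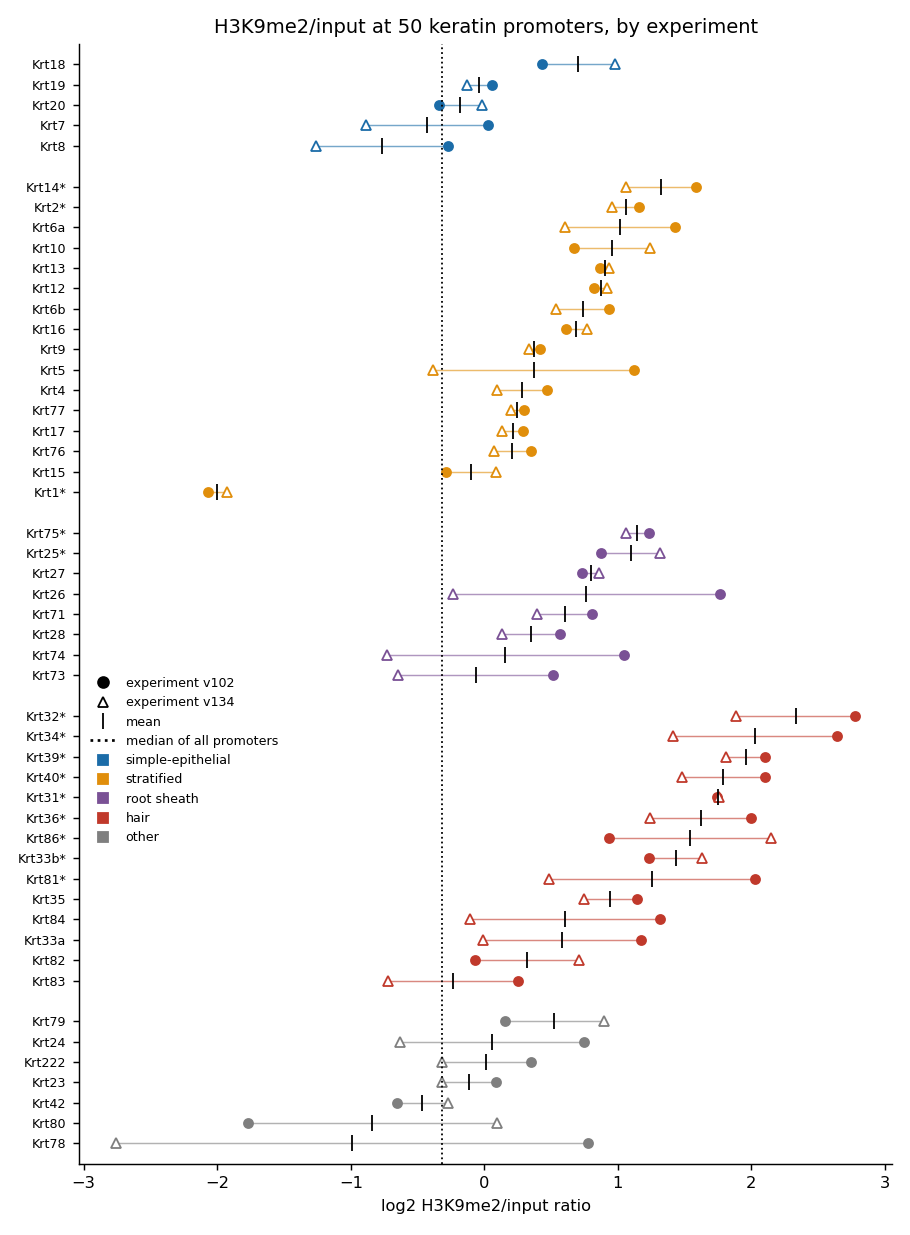
Each row is a keratin promoter, grouped by class and ordered by its mean; the horizontal axis is the log2 H3K9me2/input ratio, with circles for v102, triangles for v134, a tick for their mean and a dotted line at the median of all promoters. Asterisks mark adjusted p under 0.05 in edgeR. Of the 14 hair keratins, 9 bear an asterisk, Krt32 lies furthest right with a mean of 2.33 and Krt1 furthest left with -2.00.

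Among simple-epithelial keratins, Krt18 was the highest and its filament partner Krt8 the lowest, although both genes lie at the same end of the type II cluster. Krt18 had 5 ChIP reads over 16 input reads in v102 and 14 over 35 in v134, a ratio of 0.373 (95% Wilson interval 0.221 to 0.627). Krt8 had 4 over 22 and 2 over 33 reads, a ratio of 0.109 (0.0481 to 0.248). Krt18 lay above Krt8 in both experiments, with log2 ratios of 0.43 and 0.98 against -0.27 and -1.26, but the 2 intervals overlapped. Neither promoter was called against input, with a log2 fold change of 0.84 (SE 0.49, adjusted p = 0.16) at Krt18 and -0.93 (SE 0.67, adjusted p = 0.265) at Krt8. Without the v102 ChIP library, Krt18 passed the threshold (adjusted p = 0.0358). Krt7 and Krt19 of ductal epithelia and Krt20 of gut and urothelium lay between the pair. Krt7 had 3 ChIP reads in each experiment over 14 and 34 input reads, Krt19 had 2 and 5 over 10 and 30, and Krt20 had 5 and 8 over 28 and 42. Their mean log2 ratios were -0.43 ± 0.65, -0.036 ± 0.13 and -0.18 ± 0.23.

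Stratified keratins had 13 of 16 members above the table's median in both experiments, against 10023 of all 26354 promoters. The exceptions were Krt1, Krt5 and Krt15. Krt14, the type I keratin of basal epidermal cells, was the highest. It had 10 ChIP reads over 13 input reads in v102 and 14 over 33 in v134, a mean log2 ratio of 1.32 ± 0.37 and a log2 fold change of 1.34 (SE 0.46, adjusted p = 0.0161). Its partner Krt5 had 7 over 13 and 5 over 36 reads, with log2 ratios of 1.12 in v102 and -0.38 in v134. Krt5 thus lay above the table's level in v102, at percentile 80.9, and just under its median in v134, at percentile 49.8. Its log2 fold change was 0.26 (SE 0.56, adjusted p = 0.732). The ratio intervals of Krt14 (0.32 to 0.85) and Krt5 (0.132 to 0.456) overlapped. Krt2 of the upper epidermis had 16 over 28 and 15 over 38 reads and was also called above input, with a log2 fold change of 1.16 (SE 0.41, adjusted p = 0.0184).

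The suprabasal epidermal pair Krt1 and Krt10 stood far apart. At Krt1 there were 0 ChIP reads over 15 input reads in v102 and 1 over 35 in v134, a ratio of 0.02 (0.00348 to 0.115). At Krt10 there were 9 over 23 and 10 over 21, a ratio of 0.432 (0.254 to 0.735). The 2 intervals did not overlap, and Krt10 was higher in both experiments. Krt1 was the only keratin called below input, at percentile 6.66 of the table (log2 fold change -3.26, SE 1.08, adjusted p = 0.012), a fold that rests on a single ChIP read. Leaving out either input library or the v102 ChIP removed that call. The log2 fold change was then -3.37 without the v102 input, -3.01 without the v134 input and -2.44 without the v102 ChIP. Without either input library, far fewer promoters of the whole table were called below input than in the main fit. The neighbours of Krt1 within the type II cluster, Krt2 on one side and Krt77 on the other, had log2 ratios of 1.06 ± 0.15 and 0.25 ± 0.067. Krt10 had a log2 fold change of 1.01 (SE 0.50, adjusted p = 0.0947) and was not called. In the fit limited to 20 or more reads per input library it was called (1.39, adjusted p = 0.0155). Every keratin tested in that fit had a higher log2 fold change there than in the main fit.

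Keratins induced in wounded or hyperproliferative epidermis did not pass the threshold in the fit of all 4 libraries. Krt6a had 11 over 16 and 8 over 27 reads, Krt6b 5 over 11 and 7 over 25, Krt16 3 over 9 and 8 over 24, and Krt17 7 over 24 and 9 over 42. Their mean log2 ratios were 1.02 ± 0.59, 0.74 ± 0.28, 0.69 ± 0.11 and 0.21 ± 0.11, positive in both experiments at each of the 4. Without the v134 ChIP, Krt6a was called above input (log2 fold change 1.55, adjusted p = 0.032). Krt6a and Krt6b are near-identical neighbours, and 22.3% and 23.3% of the 75-base words in their windows occur also in another keratin window, so that reads may be split between them. Krt13, the mucosal type I keratin, and Krt12 of the cornea lay next to the threshold, with adjusted p of 0.0676 and 0.0539. Both were called under the minimum of 20 reads per input library (0.0119 and 0.0132). That fit gave every keratin tested a higher log2 fold change than the main fit. Below Krt17, the lowest stratified members were Krt76 with a mean log2 ratio of 0.21 ± 0.20, the basal-layer keratin Krt15 with -0.10 ± 0.27 and Krt1.

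Root sheath keratins, made in the layers that mould the growing hair, were intermediate and varied between experiments. Krt25 of the inner root sheath had 12 over 26 and 19 over 37 reads and a log2 fold change of 1.21 (SE 0.41, adjusted p = 0.0136). Krt75 of the companion layer had 7 over 12 and 14 over 33 reads and 1.17 (SE 0.48, adjusted p = 0.0446, and 0.0895 with the replicate block). Krt27 was next by mean log2 ratio, with 0.80 ± 0.092. It was called above input under the minimum of 20 reads per input library (adjusted p = 0.0234), where every tested keratin rose. Krt28, Krt74 and Krt73 were the lowest, with 0.35 ± 0.31, 0.16 ± 1.26 and -0.065 ± 0.82. Krt74, which the annotation lists as a transcribed unitary pseudogene, had 12 ChIP reads in v102 and 5 in v134 over 23 and 46 input reads. All 8 had a log2 ratio above 0 in v102 and 5 of 8 in v134. Without the v134 ChIP library, or without either input library, none of the 8 was called, and 2 of them had an unadjusted p under 0.05 without the v134 ChIP.

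The hair keratin promoters fell apart by type. Of the type I hair keratins 7 of 9 were called above input, and of the type II hair keratins 2 of 5, with median log2 ratios of 1.75 and 0.60. Krt32, a type I keratin of the hair cuticle, was the highest keratin promoter. It had 26 ChIP reads over 14 input reads in v102 and 28 over 36 in v134, a ratio of 1.08 (0.737 to 1.58), at percentile 98.3 of the table. Its log2 fold change was 2.40 (SE 0.38, adjusted p = 9.31e-09). Krt34 had 17 over 10 and 25 over 45 reads, Krt39 17 over 15 and 28 over 38, and Krt40 17 over 15 and 22 over 38. At these 3 the log2 fold changes were 1.92 (SE 0.39), 2.04 (SE 0.39) and 1.84 (SE 0.40), with adjusted p of 1.55e-05, 3.16e-06 and 5.75e-05. Krt31 of the hair cortex had 13 over 15 and 32 over 45 reads, and its log2 ratios of 1.74 and 1.76 were the closest pair of the called hair keratins. Krt36 had 21 over 20 and 25 over 51 reads, and Krt33b 7 over 12 and 22 over 34, with adjusted p of 9.23e-05 and 0.0019. The window of Krt31 overlaps that of Gm11571, with which it shares reads.

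The type I hair keratins not called were Krt35 and Krt33a. Krt35 lay in the top quartile of both experiments, with 10 ChIP reads in each over 18 and 30 input reads (adjusted p = 0.0905). Krt33a had 12 over 21 and 11 over 56 reads, a mean log2 ratio of 0.58 ± 0.83 and the lowest value of the type I hair class, although it starts next to Krt33b. The shares of 75-base words found in another keratin window were 12.4% at Krt33a, 4.41% at Krt33b, 11.8% at Krt34 and 8.61% at Krt31, and 0 at Krt32, Krt36, Krt39 and Krt40. In the 6 hair keratins Krt31, Krt32, Krt34, Krt36, Krt39 and Krt40, the call above input was kept in every alternative that tested them.

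Among type II hair keratins, Krt86 and Krt81 lay above Krt84, Krt82 and Krt83 by the mean of both experiments, but in neither experiment alone. In v102 Krt84, with a log2 ratio of 1.32, exceeded Krt86 with 0.93. In v134 Krt82, with 0.71, exceeded Krt81 with 0.48. Krt86 had 9 over 19 reads in v102 and 29 over 31 in v134, a log2 fold change of 1.83 (SE 0.40, adjusted p = 7.94e-05). Krt81 had the opposite imbalance, with 15 over 14 and 7 over 26 reads and a log2 fold change of 1.41 (SE 0.49, adjusted p = 0.0157, and 0.0715 with the replicate block). Krt81 and Krt86 are close relatives, with 12.3% and 14.0% of 75-base words shared with another keratin window. Krt86 lost its call without the v134 ChIP (log2 fold change 1.05, adjusted p = 0.191). Krt81 lost its call without the v102 ChIP (0.63, adjusted p = 0.44) and without either input library. Krt84, Krt82 and Krt83 were the lowest type II members, with mean log2 ratios of 0.60 ± 1.00, 0.32 ± 0.55 and -0.23 ± 0.69. Krt83 had 4 ChIP reads in each experiment over 15 and 38 input reads, and it was the only hair keratin with a negative mean.

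Among the 7 keratins of other or mixed expression, no promoter was called. Krt79, Krt24 and Krt222 were the highest, with mean log2 ratios of 0.53 ± 0.52, 0.056 ± 0.98 and 0.014 ± 0.47, and Krt78, Krt80 and Krt42 the lowest, with -0.99 ± 2.50, -0.84 ± 1.32 and -0.46 ± 0.27. Krt78 had 8 ChIP reads over 19 input reads in v102 and 0 over 31 in v134, so that the experiments placed it at percentiles 73.7 and 4.90 of the table. Without the v102 ChIP it was called below input (adjusted p = 0.00627). The window of Krt80 overlaps that of the microRNA gene Mir1941.

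The 27 keratin starts on chromosome 11 span 1026 kb and the 23 on chromosome 15 span 658 kb. On chromosome 11, 9 of 27 (33.3%) were called above input, with a median log2 ratio of 0.80. On chromosome 15, 4 of 23 (17.4%) were, with a median of 0.32. Among all promoters the share called above input was 18.6%, so the chromosome 15 share was close to that level. The 9 type I hair starts span 584 kb. Krt39 and Krt40 form one end and Krt33a to Krt36 the other, separated by 473 kb that hold genes of the keratin-associated proteins, the matrix proteins that embed hair keratin filaments. Of 22 keratin-associated promoters in that gap, 10 were called above input, with a median log2 ratio of 1.07, and 7 with the replicate block. The stretch ended on the side of the epidermal genes, where Krt36 with 1.62 ± 0.54 was followed by Krt13 with 0.90 ± 0.049, Krt15 with -0.10 ± 0.27 and the simple-epithelial Krt19 with -0.036 ± 0.13. On the other side Krt39 with 1.96 ± 0.20 was preceded by Krt23 with -0.12 ± 0.28. Type I keratins outside the hair class had a median of 0.38 (2 of 19 called above, 10.5%) and type II keratins outside it 0.25 (2 of 17, 11.8%). Both shares lay below the 18.6% of all promoters, while both medians lay above their -0.31. The symbol Krt72-ps falls outside the membership rule. Its promoter, with 15 over 22 and 8 over 26 reads, was called above input (log2 fold change 1.19, SE 0.46, adjusted p = 0.0333), but not with the replicate block (adjusted p = 0.0844).

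**Figure D3:**
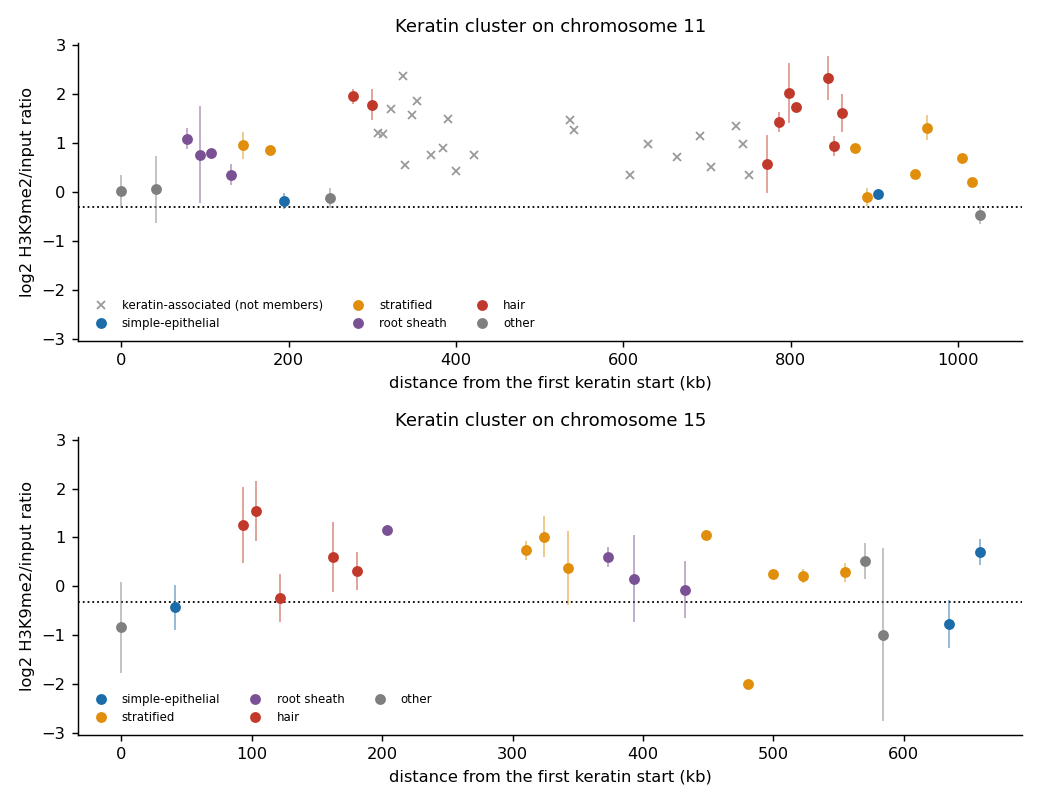
Mean log2 H3K9me2/input ratio of each keratin promoter (dots, coloured by class) against its distance in kb from the first keratin start on chromosome 11 (top) and 15 (bottom); vertical lines join the values of both experiments, crosses are keratin-associated protein promoters and the dotted line is the median of all promoters. Red hair keratin dots on chromosome 11 flank the crosses and reach 2.33, and the lowest dot on chromosome 15 is Krt1 at -2.00.

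Base composition ran with the log2 ratio over the whole table and was compared within the classes. Across 22324 promoters with a known sequence, the Spearman rho between the mean log2 ratio and the GC content of the 2 kb window was -0.54. Across the 50 keratins it was -0.33 and across the 14 hair keratins -0.64, and these points share libraries. The median GC content was 49.0% for hair, 51.0% for stratified, 52.1% for simple-epithelial keratins and 50.9% for all promoters. After removal of the table's trend with GC content, the median percentile of hair keratins went from 89.3 to 93.0, that of stratified keratins from 72.0 to 80.7 and that of simple-epithelial keratins from 53.9 to 53.0. Root sheath keratins went from 75.5 to 73.0. The order of the hair, stratified and simple-epithelial classes was thus the same with and without the correction. Among single members, Krt18 moved from percentile 75.9 to 93.9 and Krt86 from 90.1 to 98.5.

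**Figure D4:**
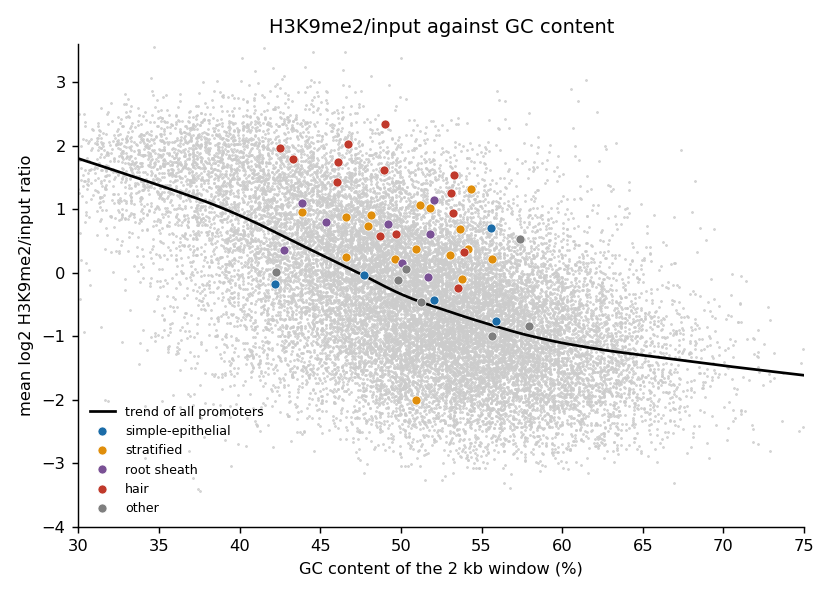
Mean log2 H3K9me2/input ratio against the GC content (%) of the 2 kb window, with all promoters in grey, their trend as a black line and keratins as coloured dots; promoters outside the axis limits are not drawn. All hair keratins lie above the line, and Krt1, at 50.9% GC, lies lowest of the keratins at -2.00.

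Keratin promoters were rich in the TATA box letters. TATAAA stood within 50 bases upstream of the annotated GENCODE start, on the gene's strand, in 18 of 50 keratins (36%) against 2.89% of all promoters with a sequence. It was found in 6 of 8 root sheath, 7 of 14 hair, 4 of 16 stratified and 1 of 5 simple-epithelial keratins. The count depends on the annotated start. With RefSeq starts it was 15 of 34 keratins (44.1%) against 2.88% of all entries. Of the copies shown above for Krt32, only the nearer lies within 50 bases of the RefSeq start, and neither does so for the GENCODE start. The letters TGANTCA, with N for any base, are a loose form of the AP-1 motif and read the same on both strands. They stood within 250 bases upstream in 4 of 50 keratins (8%), all stratified (Krt4, Krt13, Krt14 and Krt15), against 5.96% of all promoters. A match is thus not in each case the AP-1 motif itself. Among hair keratins, 4 of 7 with a match at the GENCODE start and 5 of 7 without one were called above input. Whether H3K9me2 is related to TATAAA was not tested.

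Other intermediate filament genes had a lower median than the keratins. Of 13 promoters, including vimentin, desmin, synemin, nestin, the lamins and the neurofilament genes, 0 were called above and 6 below input (Gfap, Lmnb1, Lmnb2, Nefh, Nes and Synm), with a median log2 ratio of -1.37. The other 7 were not called, and 17% of the table was called below. With the replicate block 1 of the 13, Nefh, was below, against 8.3% of the table. None had an unadjusted p under 0.05 above input. Vim, whose product is the main filament protein of mesenchymal cells, had 2 ChIP reads over 24 input reads and 1 over 28 (adjusted p = 0.0624), and Des, the muscle filament gene, had 5 over 14 and 9 over 31, with log2 ratios of 0.61 and 0.56 (adjusted p = 0.399). Their median GC content of 60.3% was above that of the keratins, 50.6%, and its part in the difference was not tested. Of 11 genes whose proteins anchor or organise keratin filaments, 0 were called above and 2 below input (Pkp1, plakophilin, with 3 and 0 ChIP reads, and Dst, dystonin, with 0 in both experiments), with a median log2 ratio of -0.58. With the replicate block Dst alone was called.

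The labelled cell type cannot be checked by expression, because ChIP and input reads at a promoter do not measure it. Of the promoters of 5 smooth muscle marker genes, Myh11 had 0 ChIP reads in both experiments and was called below input, Smtn was called above, and Acta2, Tagln and Cnn1 were not called. Of other cell types' markers, Pecam1 of endothelium and Pdgfra of fibroblasts were called below, though not with the replicate block (adjusted p = 0.0922 and 0.0564), the leukocyte gene Ptprc was called above with 15 and 39 ChIP reads, and Cdh5 and Dcn were not called. None of the epithelial genes Cdh1, Epcam, Trp63, Grhl2 and Esrp1 was called in either direction. Whether cells other than smooth muscle contributed to the keratin values was not tested.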

How the data were processed

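H3K9me2 ChIP-seq and input libraries of the aortic medial layer from 2 experiments were analysed as 2 ChIP against 2 input libraries. The authors trimmed paired-end reads, aligned them to GRCm38 and quantified reads within 1 kb of transcription start sites with SeqMonk. The submitters' processing notes name Trim Galore 0.4.2, cutadapt 1.9.1 and Bowtie2 2.2.7. Which annotation release was used, and whether duplicates were removed, is not given in the sources used here. The authors deposited raw read counts per promoter for each library, sums over both experiments, and a ratio of these sums (ChIP over input). Promoters with few input reads had been removed, and the lowest summed input count in the table was 21.

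Positions, GC content and motifs came from GENCODE release M21 for GRCm38, whose symbols matched 22329 of the 26354 promoters, and the authors may have used other start sites. Counts were tested with edgeR 4.0.16 in R 4.3.3 (quasi-likelihood test, TMM normalization, Benjamini-Hochberg adjustment over all promoters), and DESeq2 1.42.0 was an alternative. In simulated counts the edgeR test recovered 90% of the promoters with a 4-fold rise and 12% of those with a 2-fold rise. It recovered 20% of those set to 0.25 of their level and 0 of those set to 0.5, with 50 of each kind. The changed promoters were drawn from those above a minimum of expected reads, and the other 26154 were unchanged. Far more promoters were called in the data, so these rates do not give the power there. The trend with GC content was a lowess curve with fraction 0.3. Wilson intervals (95%) were computed on reads summed over both experiments. They take in counting error alone and leave out the spread between experiments. No molecular identifiers are described for the libraries, so copies of the same fragment may have been counted more than once. Other steps used Python 3.11.15 with pandas 2.3.3, statsmodels 0.14.6 and matplotlib 3.10.9.

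The labels tie every ChIP to an input of its own. The log2 ratios and the fit with the replicate block used this pairing by experiment. The main edgeR fit, which gave the calls and adjusted p unless stated otherwise, did not. Over all promoters, the v102 minus v134 difference of the ChIP libraries correlated with that of the inputs at r = 0.104. The members, classes and lists were chosen with earlier results of these data known. Named were all simple-epithelial keratins, the known filament partners Krt5 and Krt14, Krt1 and Krt10, Krt6a, Krt6b, Krt16 and Krt17, the 3 highest and 3 lowest of each other class, and every called member. Other keratins were named after their values were seen. Krt72, Krt85, Krt87, Krt88, Krt90 and Eppk1 were not analysed here. A shared word is a 75-base stretch that occurs, on either strand, in the window of another keratin.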

Additional observations from a re-analysis of the deposited data

How the results depend on the processing

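With at least 20 reads in each input library, 2446 of 13993 promoters of the table were above input. In DESeq2 the table's count above input was 3026, with no adjusted p for 17372 of 26354. The 13 keratin promoters above input became 7 of 24 tested under that minimum, of which 3 were among the 13. They became 7 in DESeq2, which gave 19 keratins no adjusted p. The count was 7 to 12 when a library was left out, a fit in which the lone library is assumed to vary like the others. The 1 promoter below input, Krt1, was not tested under that minimum, since it had 15 reads in the v102 input, and got no adjusted p in DESeq2, so the 0 below input in both says nothing of its stability (0 and 1 keratins were below at an unadjusted p under 0.05). The count below was 0 to 1 when a library was left out, where the 1 without the v102 ChIP was Krt78 rather than Krt1. With the replicate block, the paired fit, 11 were above and 1 below, and the calls of Krt75 and Krt81 were the only ones of the 14 lost. The cause of these changes was not tested. A pseudocount of 5 reads moved the medians of the simple-epithelial and stratified log2 ratios to 0.32 and 0.91, while that of all promoters moved from -0.31 to 0.34. A minimum of 20 reads in each input gave -0.47, 0.28, 0.60 and 0.59 for simple-epithelial, stratified, root sheath and hair keratins, and -0.56 for all promoters. Removal of the GC trend gave 0.081 and 0.86 for simple-epithelial and stratified keratins. In single experiments the medians ranged from -0.13 to 0.025 (simple-epithelial), 0.44 to 0.64 (stratified), 0.27 to 0.84 (root sheath) and 1.33 to 1.53 (hair). Scaling by library totals without TMM shifted the table's median log2 fold change by -0.14, against which keratin values under that scaling are read. Under the minimum of 20 reads, the median of the 13993 promoters kept was 0.11 above that of all 26354. These are different sets of promoters, so 0.11 is not a level for keratin values under that minimum. Each of the 24 keratins tested there rose by more, such as Krt25 from 1.21 to 1.57 and Krt20 from -0.18 to 0.18. Of 405 pairs of a keratin and an alternative, 348 kept their direction and side of the threshold, 30 lost the call, 8 gained it and 19 changed sign, none of these called in either fit. By setting, the log2 fold change changed sign at Krt24 without TMM, to -0.020. Under the minimum of 20 reads, where every tested keratin rose, it did so at Krt20, Krt15 and Krt73, to 0.18, 0.26 and 0.31. With a library left out, the log2 fold change ranged from -0.35 to 0.34 at Krt222, -0.59 to 0.78 at Krt24, -0.37 to 0.012 at Krt20, -0.43 to 0.10 at Krt23, -0.31 to 0.096 at Krt15, -0.77 to 0.21 at Krt19, -0.085 to 0.70 at Krt82, -0.12 to 0.74 at Krt5, -0.63 to 1.01 at Krt74, -0.73 to 0.64 at Krt73 and -7.23 to 0.88 at Krt78, whose lowest value has 0 ChIP reads behind it and depends on the prior count. Depth limits single promoters, since the median keratin had 8 and 9 ChIP reads.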
